A study of Mus musculus with 9 samples.

Results

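Growth hormone (Gh), prolactin (Prl) and 4 further genes of the pituitary cells that make these hormones were followed through single cells: Ghrhr, Pou1f1, Dlk1 and Pappa2. These 6 of the 18634 genes in the deposited table were chosen by name, after earlier results of the same data had shown Gh to be high in libraries 4 to 6. Within those libraries the 10113 cells were grouped by the share of their UMIs that came from Gh: under 10%, 10% to under 50%, and 50% or more. The grouping therefore rests on Gh itself, and what follows on Gh and on the other members between these classes is a description without a test.

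The cells came from brainstem, cortex and hypothalamus of male C57BL/6J mice aged 9 to 11 weeks, all collected at ZT12. The 3 groups were undisturbed normal sleep (NS), sleep deprivation for 12 h (SD) and the same deprivation with recovery sleep after it (RS), for which the sources give both 24 h and 12 h. Each region and sleep group was a pool of tissue from 3 mice, which was dissociated with papain, cleared of myelin with beads and run as 1 droplet (10x) library, which gives 9 libraries and no replicate of any group. The codes that mark the 9 libraries in the table match no sample label, so libraries are numbered 1 to 9 in column order. Only library 7 held all of the 1999 barcodes used here that the study lists for brainstem NS, against 5 to 13 in each other one. No tissue or sleep state is given here for libraries 1 to 6, 8 and 9, and sleep groups were not compared.

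Somatotrophs are the pituitary cells that release growth hormone, and lactotrophs release prolactin. Both arise from a lineage that depends on the transcription factor POU1F1, which binds the Gh and Prl promoters. Growth hormone-releasing hormone from the hypothalamus acts on somatotrophs through its receptor, encoded by Ghrhr. Dlk1 encodes a membrane protein related to the Notch ligands and is expressed from the paternal allele of an imprinted region. Pappa2 encodes a protease that cleaves IGF-binding proteins and so frees insulin-like growth factors.

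In GENCODE vM21 on GRCm38, the build of the files, Gh (ENSMUSG00000020713) lies on the minus strand at chr11:106300271-106301865. Prl (ENSMUSG00000021342) lies on the plus strand at chr13:27057570-27065205. Ghrhr (ENSMUSG00000004654) is at chr6:55376295-55388530, Pou1f1 (ENSMUSG00000004842) at chr16:65520511-65535005 and Dlk1 (ENSMUSG00000040856) at chr12:109452823-109463336, each on the plus strand. Pappa2 (ENSMUSG00000073530) is on the minus strand at chr1:158711727-158980490.

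The promoters of Prl and Pou1f1 are shown because POU1F1 is known to act on both of them. The 250 bases before the RefSeq start, for Pou1f1 the first of 2 starts, are given 5′ to 3′ (GRCm38.p6, plus strand, chr13:27057320-27057569 for Prl and chr16:65520262-65520511 for Pou1f1), and capitals mark each match to the core letters TATNCAT or their reverse complement ATGNATA.
Prl: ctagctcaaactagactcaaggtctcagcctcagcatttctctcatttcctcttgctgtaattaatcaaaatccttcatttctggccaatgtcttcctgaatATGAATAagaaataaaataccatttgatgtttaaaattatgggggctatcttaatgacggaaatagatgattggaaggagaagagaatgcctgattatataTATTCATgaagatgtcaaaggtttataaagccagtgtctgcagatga
Pou1f1: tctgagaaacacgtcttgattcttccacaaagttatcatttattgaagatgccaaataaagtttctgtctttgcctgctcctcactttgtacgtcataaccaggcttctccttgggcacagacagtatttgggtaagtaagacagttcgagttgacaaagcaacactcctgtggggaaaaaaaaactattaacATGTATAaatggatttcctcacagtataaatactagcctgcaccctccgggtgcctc
The Prl window held 2 matches, ATGAATA from 148 to 142 bases before the start and TATTCAT from 47 to 41 bases before it. The Pou1f1 window shown held 1 match, ATGTATA from 57 to 51 bases before the start, and a second RefSeq window of Pou1f1, which begins at a later start (chr16:65523059-65523308), held 0. RefSeq windows were found for 4 of the 6 members. In the windows of the other two with an entry, Pappa2 held 1 match (TATCCAT) and Dlk1 held 0. The Pappa2 window lies within the GENCODE coordinates of the gene given above, not upstream of them. At least 1 match was present in 2603 of 32851 RefSeq windows of this length (7.92%), and 2 or more were present in 1.26% of them. A match is a run of letters and not a measured binding site.

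Over the 9 libraries the number of cells ran from 2575 to 3916, the total from 1522766 to 5488950 UMIs and the median per cell from 402 to 1055 UMIs. Cell barcodes were shared by every pair of libraries, from 5 to 25 per pair. Intervals are 95% and exact (Poisson for levels, Clopper-Pearson for shares of cells, conditional binomial for ratios). They cover counting error only and say nothing of the spread between mice.

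Gh was the dominant transcript of libraries 4 to 6 and close to absent elsewhere. Its share of all UMIs was 25.3%, 27.9% and 32.1% in libraries 4, 5 and 6. At least 1 Gh UMI was found in 3471 of 3491 cells, 2621 of 2706 cells and 3916 of 3916 cells of these libraries. In the other 6 libraries Gh ran from 0.225 CPM in library 7 to 75.5 CPM in library 1, with at most 6 UMIs in any cell.

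Single cells held either very little Gh or a great deal of it. Library 4 had 2336 cells under 10%, 236 cells from 10% to under 50% and 919 cells at 50% or more, the last being 26.3% of the library (24.9 to 27.8%). The corresponding numbers were 1958, 88 and 660 cells in library 5 and 1995, 347 and 1574 cells in library 6. The class of 50% or more thus made up 24.4% (22.8 to 26.1%) of library 5 and 40.2% (38.7 to 41.7%) of library 6. These cells carried 86.9%, 93.4% and 87.1% of all Gh UMIs of libraries 4, 5 and 6. Gh in one of them ranged from 224 to 4391 UMIs with a median of 836 in library 4, from 167 to 3784 with a median of 678 in library 5, and from 318 to 6865 with a median of 772 in library 6. Cells under 10% had medians of only 6, 3 and 12 Gh UMIs.

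**Figure D1:**
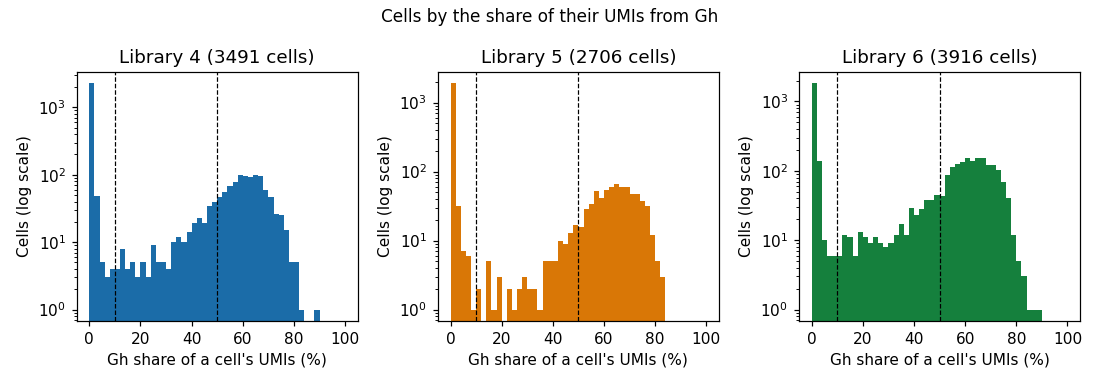
Number of cells (log axis) by the percentage of their UMIs that came from Gh, in libraries 4, 5 and 6, with dashed lines at 10% and 50%. Most cells sit near 0 or in a broad peak above 50%, with few between.

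The lower boundary fell in a sparse range and the upper one on the slope of the peak. Between 5% and 10% there were 8, 11 and 18 cells in libraries 4, 5 and 6, and between 10% and 15% there were 13, 2 and 26. Between 45% and 50% there were 85, 37 and 97 cells, and between 50% and 55% there were 138, 67 and 179. The cells next to the upper boundary held 49.9% and 50.1% Gh in library 4.

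To keep Gh from diluting every other gene, levels of the other members are given as Gh-free CPM, which is counts per 1000000 UMIs other than Gh. The median cell of 50% or more had 502, 352 and 445 such UMIs in libraries 4, 5 and 6, against 734, 472 and 906 in cells under 10%.

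Prl, the hormone of lactotrophs, was lower in the cells with 50% Gh or more, called Gh-rich from here on. Its level in cells under 10% Gh was 19085, 17613 and 49759 Gh-free CPM in libraries 4, 5 and 6. In cells of 50% or more it was 1043, 1038 and 2541. The level was thus 18.3-fold (16.8 to 20), 17.0-fold (15.1 to 19.2) and 19.6-fold (18.8 to 20.5) lower in the Gh-rich cells, and cells under 10% held 97.9%, 98.1% and 95% of all Prl UMIs. This difference rested on the Prl-rich cells, those with Prl at 10% or more of their UMIs other than Gh: without them, an alternative chosen after seeing the data, the ratio of Gh-rich cells to cells under 10% was 0.735, 1.12 and 0.716, so that its direction turned in library 5.

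The 4 other members went the opposite way in each of libraries 4, 5 and 6. Ghrhr, the receptor through which somatotrophs receive their releasing hormone, was at 273, 258 and 196 Gh-free CPM in cells of 50% or more. In cells under 10% it rested on 5, 1 and 7 UMIs, or 2.2, 0.822 and 2.77 Gh-free CPM. The ratios were 124 (51.9 to 389), 314 (54.4 to 12559.9) and 70.7 (33.5 to 179), the second from a single UMI in the lower class.

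Pappa2 was likewise concentrated in the Gh-rich cells. It was at 201, 153 and 156 Gh-free CPM in the Gh-rich cells of libraries 4, 5 and 6, with 100, 41 and 128 UMIs. Cells under 10% gave 5, 1 and 10 UMIs, or 2.2, 0.822 and 3.96 Gh-free CPM. The ratios were 91.3 (37.9 to 287), 186 (31.6 to 7535) and 39.3 (20.7 to 84.0). Cells of 50% or more held 81.3%, 97.6% and 78.5% of the Pappa2 UMIs and 79.5%, 87.3% and 83.9% of the Ghrhr UMIs.

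Dlk1 was at 4253, 3653 and 4733 Gh-free CPM in cells of 50% or more and at 233, 208 and 534 in cells under 10%. The level was 18.3-fold (16.6 to 20.1), 17.6-fold (15.3 to 20.2) and 8.86-fold (8.32 to 9.43) higher in the Gh-rich cells. Single Gh-rich cells held up to 12, 12 and 25 Dlk1 UMIs in libraries 4, 5 and 6, and single cells under 10% up to 17, 7 and 31. The smaller ratio of library 6 went with a higher level in its cells under 10%.

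Pou1f1, which marks the common lineage, was at 458, 369.8 and 498 Gh-free CPM in cells of 50% or more and at 47.1, 39.5 and 132 in cells under 10%. The ratios, 9.73 (7.70 to 12.4), 9.37 (6.57 to 13.5) and 3.77 (3.26 to 4.37), were the smallest of the 4 members that were higher, but without the Prl-rich cells they were 29.4, 42.2 and 13.2, above those of Dlk1 (19.8, 19.3 and 11.5). Cells under 10% held 28.4%, 31.0% and 37.9% of its UMIs in libraries 4, 5 and 6.

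In CPM of all UMIs, Gh included, the ratios were smaller, since a Gh-rich cell then counts Gh in its total, and Pou1f1 in library 6 was no longer 2-fold higher. On that scale the ratios were 45.6, 103 and 24.9 for Ghrhr, 33.5, 61.2 and 13.9 for Pappa2, 6.70, 5.77 and 3.13 for Dlk1, and 3.57, 3.08 and 1.33 for Pou1f1. The Prl ratio was 0.0200, 0.0194 and 0.0180.

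**Figure D2:**
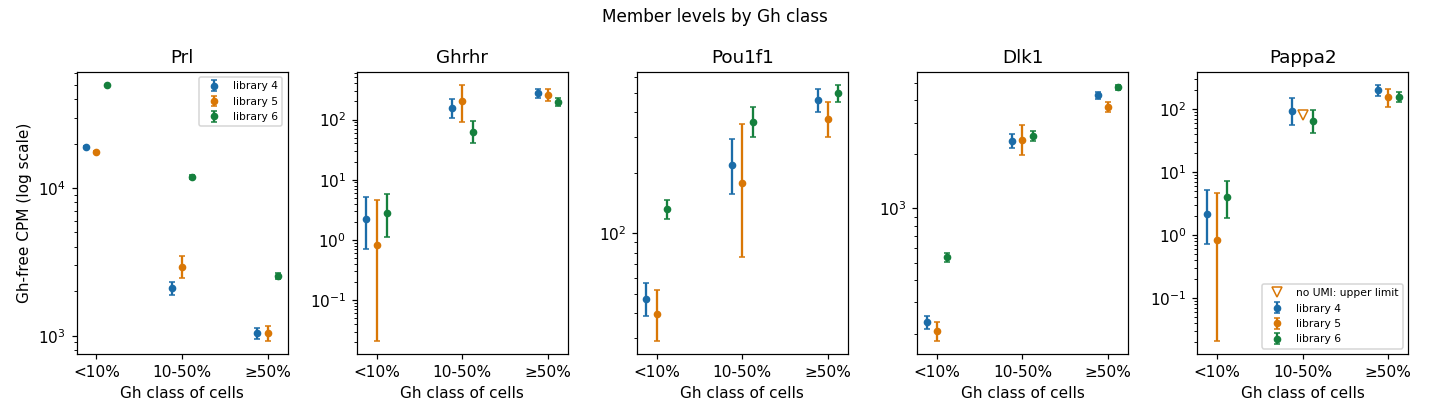
Gh-free CPM (log axis) for Prl, Ghrhr, Pou1f1, Dlk1 and Pappa2 by Gh class, with 1 point per library and exact 95% Poisson intervals. An open triangle marks the upper limit where a class had no UMI (Pappa2, 10-50%, library 5). Prl is lowest and the other 4 are highest at 50% or more, in each library.

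Cells of 10% to under 50% lay between the other classes for Ghrhr, Dlk1 and Pou1f1. Dlk1 was there at 2379, 2419 and 2539 Gh-free CPM, or 1.79, 1.51 and 1.86 times lower than in cells of 50% or more. Ghrhr was at 156, 199.7 and 62.8 Gh-free CPM, and the ratio of the Gh-rich class to it in library 5, 1.29 (0.642 to 2.94), was not distinguishable from 1. Pappa2 was at 93.5 and 65.4 Gh-free CPM in libraries 4 and 6, and its 0 UMIs in the 88 cells of library 5 allow up to 66.6 Gh-free CPM by the limit of 3 counts (81.9 by the exact interval). The middle class also held markers of other pituitary cells. The 5 gonadotroph markers summed to 9927 and 6860.0 Gh-free CPM in libraries 4 and 6, against 990.4 and 1061 in cells of 50% or more, though in library 5 they were at 111 against 355. The 5 thyrotroph markers, which share Cga with that list and include Pou1f1, summed to 8477, 244 and 5659.6 against 1286, 639 and 1382. The 5 corticotroph or melanotroph markers summed to 9963, 266 and 16484 against 1410.2, 153 and 2469.9. With a shared gene, the first 2 sums do not tell these cell types apart. The part of cells of mixed origin in the middle values was not tested.

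In finer bins Dlk1 also differed inside the Gh-rich class. It was at 4089, 2871 and 3839.8 Gh-free CPM in cells of 50% to under 60% Gh in libraries 4, 5 and 6, and at 5713, 4673 and 6021 in cells of 70% or more. Dlk1 in the bin between them was at 3994, 3356 and 4779, which in library 4 was not above the lowest of these bins. The 95% intervals of the lowest and the highest of these bins did not overlap in any of the 3 libraries. Pou1f1 did not show this order. It was at 459.5, 297 and 517 Gh-free CPM in the lower bin and at 529, 282 and 488 in the upper one, with overlapping intervals throughout. Ghrhr (207, 208 and 198 against 265, 305 and 155) and Pappa2 (217, 119 and 162 against 327, 223 and 128) also had overlapping intervals, in bins of 8 to 55 UMIs. Prl (811, 2023 and 3125 against 2133, 775 and 2381) had separate intervals in each library, but was higher in the upper bin in library 4 only. Single Prl-rich cells carried part of this, which the intervals do not cover. In the lower bin, 1 such cell held 87 of 136 Prl UMIs in library 5 and 162 of 870 in library 6. In the upper bin of library 4, 1 held 44 of 137. The order of the Prl levels without these cells was not tested. The bins were chosen after the data had been seen, and the bin of 10% to under 30% held only 19 cells in library 5.

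**Figure D3:**
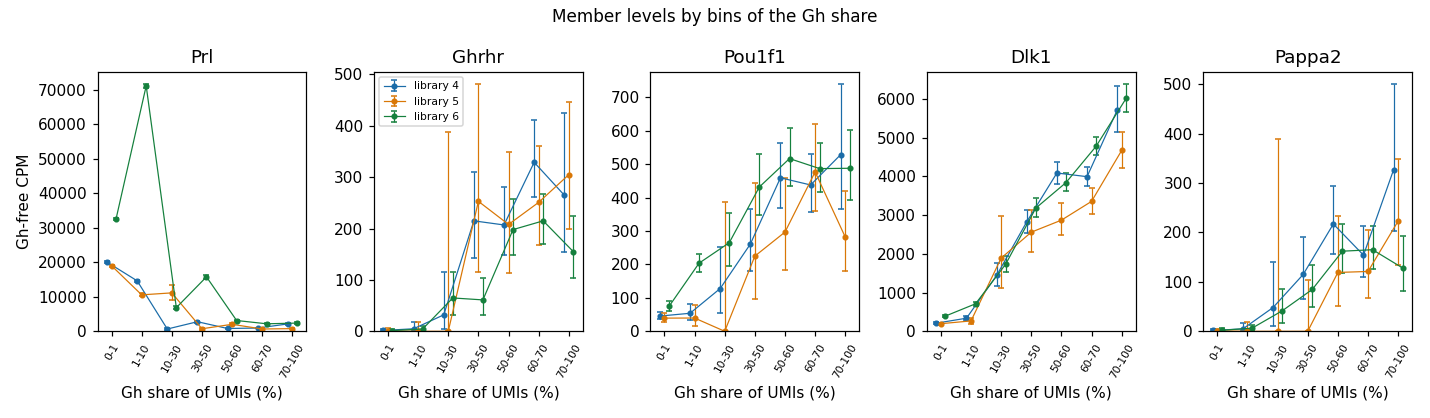
Gh-free CPM (linear axis) of the 5 members in 7 bins of the Gh share of a cell's UMIs, by library, with exact 95% Poisson intervals. Dlk1 is highest in the last bin in each library (5713, 4673 and 6021 Gh-free CPM), while Pou1f1 has no such step.

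High Prl and high Gh were seldom in the same cell. A cell was called Prl-rich when Prl made up 10% or more of its UMIs other than Gh, and 775 cells of libraries 4 to 6 met this. Of these, 757 had a Gh share under 10%, and 18 (2.32%, 1.38 to 3.65%) had more. Of the 3153 cells with 50% Gh or more, 3 were Prl-rich, 1 in each library.

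The exceptions lay almost all in library 6. Its middle class had 15 Prl-rich cells among 347 (4.32%, 2.44 to 7.03%), while those of libraries 4 and 5 had 0 of 236 and 0 of 88, which allow shares of up to 1.27% and 3.41% by a limit of 3 cells, or 1.55% and 4.11% by the exact interval. These 15 cells had a median of 2456 UMIs, against 1317 for their class, and held 3150 of the 4521 Prl UMIs of that class. Without them the Prl level of the class was 3799 Gh-free CPM instead of 11824. All 18 cells high in both hormones had a median of 2197 UMIs against 849 in the 757 others, and 2 of the 18 were among the 5% of cells with the most UMIs of their library. No doublet caller was run, and 2 cells in 1 droplet cannot be told apart here from 1 cell with both hormones.

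**Figure D4:**
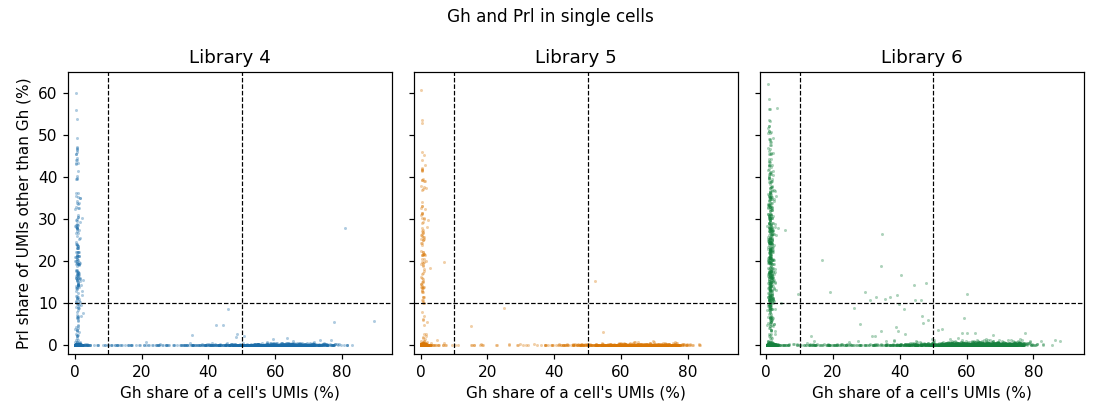
Each point is a cell of library 4, 5 or 6, placed by the Gh share of all its UMIs and the Prl share of its UMIs other than Gh, with dashed lines at 10% and 50% Gh and at 10% Prl. The cells form an L, and the region high in both holds 18 cells, 16 of them in library 6.

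The Prl-rich cells under 10% Gh numbered 164, 107 and 486 in libraries 4, 5 and 6, or 7.02%, 5.46% and 24.4% of all cells of that class. Prl made up 26.3%, 27.0% and 26.1% of their UMIs other than Gh, with up to 1840 Prl UMIs in a cell. They held 91.7%, 94.8% and 89.9% of the Prl of their libraries. The share of such cells thus differed between libraries, while their summed Prl level was nearly the same in each. The cells were chosen by Prl itself, so that the limit of 10% sets a floor to this level in every library.

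Pou1f1 was also high in the Prl-rich cells. Its level there was 479, 495 and 559.7 Gh-free CPM in libraries 4, 5 and 6, and the ratio of Gh-rich to Prl-rich cells, 0.956 (0.732 to 1.26), 0.747 (0.509 to 1.12) and 0.889 (0.758 to 1.04), included 1 each time. In CPM counted without either hormone, Pou1f1 was lower in the Gh-rich cells, with ratios of 0.705 (0.540 to 0.929), 0.546 (0.372 to 0.817) and 0.659 (0.562 to 0.773). In the cells under 10% that were neither Prl-rich nor in the gate described next, Pou1f1 was at 17.3, 10.2 and 38.2 Gh-free CPM.

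Dlk1 was present in Prl-rich cells at an intermediate level of 473, 495 and 1082 Gh-free CPM. That was 9.00-fold (7.12 to 11.5), 7.38-fold (5.34 to 10.5) and 4.37-fold (3.98 to 4.81) below the Gh-rich cells, and 2.01-fold, 2.35-fold and 2.54-fold above the remaining cells under 10%. In CPM counted without either hormone the first 3 ratios were 6.64, 5.40 and 3.24. Dlk1 thus separated the 2 kinds of hormone-rich cells on either scale, and Pou1f1 did so only on the second, in the opposite direction.

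Ghrhr and Pappa2 were nearly absent from the Prl-rich cells. Libraries 4 and 5 had 0 UMIs of either gene in 164 and 107 Prl-rich cells, and library 6 had 2 UMIs of each in 486 cells. For Ghrhr, the Gh-rich level was at least 14.1-fold and 6.60-fold higher in libraries 4 and 5 when 0 is set to a floor of 3 counts per library (lower limits of the exact interval, 11.3 and 5.22), and 44.6-fold (12.2 to 372) higher in library 6. For Pappa2, the same floor gave at least 10.3-fold and 3.92-fold (lower limits 8.26 and 3.05), and the ratio in library 6 was 35.5 (9.62 to 296).

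Cells that should make neither hormone give the background of each transcript. They were taken as the cells under 10% Gh, not Prl-rich, with at least 5 UMIs of the microglial or of the endothelial marker list, which gave 270, 302 and 62 cells with a median of 606, 455 and 824 UMIs. Prl was at 552, 1061 and 1226 Gh-free CPM in them, and the Gh-rich cells exceeded this by 1.89-fold (1.55 to 2.33) in library 4 and 2.07-fold (1.69 to 2.56) in library 6 but not in library 5 (0.979, 0.805 to 1.19). The gated cells were capped by Prl itself, since 9 cells that passed the marker limit were left out as Prl-rich. The Gh-rich class kept its Prl-rich cells, 1 in each library. The Prl ratios are therefore in part set by this choice. Single cells carried much of this: 1 gated cell held 40 of 119, 71 of 167 and 47 of 100 Prl UMIs in libraries 4, 5 and 6, and 1 Gh-rich cell of library 5 held 87 of 278. Without that gated cell, left out after seeing the data, the ratios were 2.83 (2.23 to 3.64), 1.69 (1.34 to 2.15) and 3.87 (2.94 to 5.18), and without the top Gh-rich cell as well they were 2.60, 1.16 (0.906 to 1.5) and 3.57. Dlk1 was at 37.1, 50.8 and 110.3 Gh-free CPM in the gated cells. Pou1f1 gave 0, 0 and 2 UMIs there, Ghrhr 1, 0 and 0, and Pappa2 2, 1 and 0. Dlk1 was 115-fold (58.1 to 266), 71.9-fold (36.3 to 167) and 42.9-fold (22.6 to 93.9) higher in Gh-rich than in gated cells, and 183-fold, 95.3-fold and 64.5-fold higher without the gated cell with most Dlk1.

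After every cell had been thinned at random to 250 UMIs other than Gh, which left out 67, 157 and 147 shallower Gh-rich cells and none under 10%, Dlk1 was found in 63.4%, 58.4% and 66.9% of Gh-rich cells. In gated cells the share was 0.741%, 1.66% and 3.23%, and in Prl-rich cells 12.8%, 8.41% and 20.6%. Before thinning the Gh-rich shares were 82.0%, 69.1% and 83.1%.

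The receptor and the protease were caught in few cells. Ghrhr was found in 6.81%, 6.56% and 4.98% of thinned Gh-rich cells, against 0.370%, 0% and 0% of gated cells. Pappa2 was found in 4.69%, 2.39% and 3.78% of the former. Before thinning these shares were 13.3%, 9.85% and 9.85% for Ghrhr and 10.1%, 6.06% and 7.69% for Pappa2, and no Gh-rich cell held more than 3 UMIs of Ghrhr or 2 of Pappa2. At such counts a cell without a UMI is not a cell without the transcript.

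Pou1f1 was found in 9.86%, 7.55% and 11.8% of thinned Gh-rich cells and in 11.6%, 8.41% and 13.4% of thinned Prl-rich cells, with overlapping intervals in each library. Prl was found in 19.6%, 14.9% and 42.0% of thinned Gh-rich cells, in 16.9%, 14.0% and 43.1% of all thinned cells under 10% and in 10.0%, 9.60% and 16.1% of gated cells. The intervals of Gh-rich cells and gated cells, the latter chosen without Prl-rich cells, overlapped in library 5 only. Those of Gh-rich cells and all cells under 10% overlapped in each library. Before thinning, the Prl shares were 35.9%, 23.5% and 62.3% of Gh-rich and 24.8%, 15.2% and 54.8% of gated cells.

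**Figure D5:**
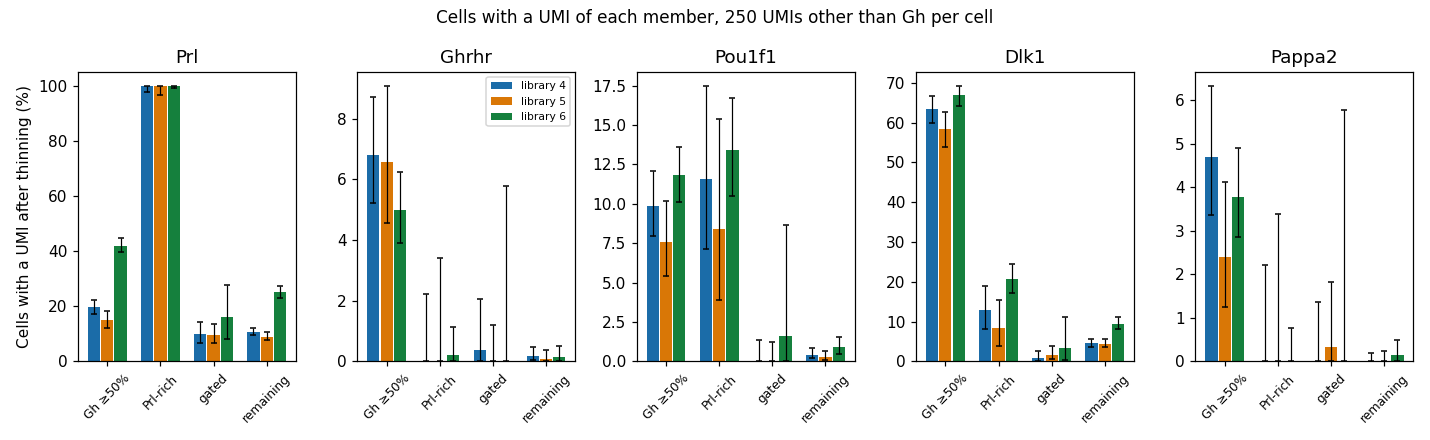
Percentage of cells with at least 1 UMI of each member after thinning to 250 UMIs other than Gh, in Gh-rich cells, Prl-rich cells, cells of the microglial or endothelial gate and the remaining cells under 10% Gh. Bars are libraries 4, 5 and 6 with exact 95% Clopper-Pearson intervals. Ghrhr and Pappa2 appear mainly in Gh-rich cells, Pou1f1 in both kinds of hormone-rich cells, and Dlk1 reaches 66.9% of Gh-rich cells in library 6.

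Within the thinned Gh-rich cells, no pair of members was found together more often in every library. For the 10 pairs among the 5 members, the share of cells with the second gene was compared between cells with and without the first, and 2 (Prl with Ghrhr, and Ghrhr with Pou1f1) were found together less often in all 3. The intervals of the shares with and without the first gene overlapped in 30 of 30 comparisons, which does not bound the difference itself. For Ghrhr and Dlk1 in library 5 they barely did, with Dlk1 in 26 of 33 cells with Ghrhr (78.8%, 61.1 to 91.0%) and in 57.0% (52.4 to 61.5%) of those without, but in libraries 4 and 6 Dlk1 was found in 58.6% and 59.2% of cells with Ghrhr and in 63.7% and 67.3% of those without. For example, Dlk1 was found in 63.1%, 60.5% and 67.9% of cells with Pou1f1 and in 63.4%, 58.3% and 66.7% of cells without it. Without thinning, 8 of the 10 pairs were found together more often in all 3 libraries, and still 0 of 30 comparisons had separate intervals. The counts of the rarer pairs, such as 2, 1 and 2 thinned cells with both Ghrhr and Pappa2, cannot show a moderate link.

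The number of each transcript per Gh UMI is given as a description, since the classes were cut on Gh and a low Gh count under 10% is fixed by the grouping. In Gh-rich cells there were 0.156, 0.125 and 0.105 Ghrhr UMIs per 1000 Gh UMIs in libraries 4, 5 and 6. In the remaining cells under 10% the ratio was 0.267, 0.146 and 0.215, resting on 4, 1 and 5 Ghrhr UMIs. Dlk1 had 2.43, 1.77 and 2.54 UMIs per 1000 Gh UMIs in Gh-rich cells and 29.9, 30.2 and 36.4 in the remaining ones. Pou1f1 had 0.262, 0.179 and 0.267 against 2.2, 1.46 and 3.26. Pappa2 had 0.115, 0.0741 and 0.0835 against 0.2, 0 and 0.344, the latter from 3, 0 and 8 UMIs. The counts of Ghrhr and Pappa2 outside the Gh-rich cells are too low to place their ratios.

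These cells were also set against marker lists. The 3 somatotroph markers other than Gh are the members Ghrhr, Pou1f1 and Pappa2 described above, so they give no separate check of the Gh-rich cells. Their sum was 781 to 932 Gh-free CPM in Gh-rich cells and 479 to 569 in Prl-rich cells, the latter nearly all Pou1f1, against 41.1 to 139 in all cells under 10%. Of the 5 lactotroph markers 4 were found in Gh-rich cells, where Drd2, the dopamine receptor of lactotrophs, had 0 UMIs. Drd2 was also nearly missing from the Prl-rich cells, with 0, 0 and 1 UMIs, while Esr1, the estrogen receptor, had 21, 8 and 43. The 5 corticotroph or melanotroph markers summed to 153 to 2469.9 Gh-free CPM in Gh-rich and to 404 to 1749 in Prl-rich cells, against 4654 to 43463 in all cells under 10%. The 7 microglial markers, all of them detected, were at 129 to 369.8 Gh-free CPM in Gh-rich and 185 to 1351 in cells under 10%, and the 6 endothelial ones at 81.5 to 161 against 266 to 1697. Hemoglobin and Alas2 summed to 118 to 2962 Gh-free CPM in Gh-rich cells. The part of these other transcripts in the members' values was not tested.

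Among all genes with at least 100 UMIs in libraries 4 to 6 other than Gh, a minimum that the 5 other members all met, 229 of 9169 (2.50%) were at least 2-fold higher in cells of 50% or more than in cells under 10% in each of the 3 libraries, after adding 10 Gh-free CPM to both levels. Another 679 (7.41%) were at least 2-fold lower. Ghrhr, Pou1f1, Dlk1 and Pappa2 were among the former and Prl among the latter, and nothing is read from this count, since the members were chosen with this contrast in view. The median log2 ratio over all genes was 0.05, -0.10 and 0.06 in libraries 4, 5 and 6.

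The 10 genes with the largest ratio in the library where it was smallest included Ghrhr, Pappa2 and Dlk1, from which nothing is read, and 7 others. Dapl1 was at 884, 538 and 958 Gh-free CPM in Gh-rich cells and at 18.5, 32.9 and 29.7 in cells under 10%. Snhg18, a noncoding RNA that hosts small nucleolar RNAs, was at 1221, 975 and 1550.1 against 101, 67.4 and 149. Ccl17, a chemokine, was at 209, 317 and 170.3 against 3.08, 6.58 and 5.94. Mrap2, an accessory protein of melanocortin and ghrelin receptors, was at 123, 134 and 85.2 against 10.1, 9.86 and 4.36. Isg20, an exonuclease, and the uncharacterised 5330429C05Rik and 5730403I07Rik completed the set.

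Of 13 regulators of the PIT1 (POU1F1) lineage, 11 had enough UMIs, of which 3 were higher and 0 lower by this rule, where 2.50% and 7.41% of all genes were, with a median log2 ratio of 1.01 against 0.02 over all genes. One of the 3 was Pou1f1, itself chosen with this contrast in view. The others were Rxrg, a retinoid receptor (94.4, 67.2 and 76.7 Gh-free CPM against 5.28, 15.6 and 2.77), and Neurod4, a bHLH factor of somatotroph development (36.2, 26.1 and 41.4 against 4.84, 1.64 and 9.90). Pitx1, a factor of all anterior pituitary cells, was at 64.3, 22.4 and 43.8 against 70.8, 46.9 and 101.

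Of 12 receptors of the growth hormone and prolactin axis, 5 had enough UMIs, and 2 were higher and 0 lower, against 2.50% and 7.41% over all genes. These were Ghrhr, a member chosen with this contrast in view, and the prolactin receptor Prlr, at 191, 131 and 125 Gh-free CPM in Gh-rich cells against 35.2, 28.8 and 34.1. The somatostatin receptor Sstr5 had too few UMIs for the rule, but 24 of its 30 lay in Gh-rich cells and 1 in cells under 10%. Of the other receptors with too few UMIs, Sstr1 had 0 UMIs in Gh-rich cells and 19 in cells under 10%. Trhr had 0 and 13, Sstr2 6 and 16, Ghsr 2 and 4, Sstr3 40 and 34, and Drd2 0 and 2. These are raw counts from classes of unlike size. Gh-rich cells held 16.8%, 17.5% and 22.0% of the UMIs other than Gh of libraries 4, 5 and 6. Cells under 10% held 76.7%, 79.5% and 67.7% of them. Sstr3 was therefore higher per UMI in Gh-rich cells, and the counts of Sstr2, Ghsr and Drd2 are too low to place. Ghr, the growth hormone receptor, was at 0, 3.73 and 3.65 Gh-free CPM against 16.3, 22.2 and 15. Of the 6 ligands, 2 had enough UMIs, and both were lower (7.41% over all genes). Sst, the inhibitor of growth hormone release, was at 6.03, 0 and 3.65 against 48.4, 44.4 and 42.0 Gh-free CPM, and Ghrh gave 60 UMIs in cells under 10% and 0 in Gh-rich cells.

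Of 10 secretory granule genes, all had enough UMIs, 0 were higher and 3 were lower, where 2.50% and 7.41% of all genes were, with a median log2 ratio of -0.47 against 0.02. Chga, a granule core protein, was at 108, 119.5 and 127 Gh-free CPM in Gh-rich cells against 919, 811 and 722, and Scg2 was at 369.6, 261 and 377 against 2037, 1373 and 2001. Pcsk2, a prohormone convertase, was the other lower one. Scg3 was at 183, 153 and 176 against 156, 158 and 151. Cells under 10% also held the 5 gonadotroph markers at 13918 to 28750.5 Gh-free CPM and the corticotroph or melanotroph markers given above, and the part of such cells in the granule levels was not tested.

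Of 8 Notch and DLK genes, 5 had enough UMIs, 0 were higher and 2 lower (2.50% and 7.41% of all genes), the latter being Hes1 and Hey1, transcription factors induced by Notch. Hes1 was at 34.2, 59.8 and 40.2 Gh-free CPM in Gh-rich cells against 216, 266 and 199. In the imprinted region, both genes with enough UMIs of the 4 listed were higher, as were 2.50% of all genes. Meg3, a maternally expressed long noncoding RNA, was at 13952, 10794 and 12171 against 4831, 3781 and 4429.8, and Mirg, a microRNA host transcript, at 167, 168 and 155 against 39.1, 33.7 and 39.2. Rtl1 had 25 of its 57 UMIs in Gh-rich cells. Meg3 and Mirg are neighbouring transcripts, and how far the counting keeps their reads apart was not tested.

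Around Pappa2, 4 of the 7 IGF-binding and pappalysin genes had enough UMIs, and all 4 were lower in Gh-rich cells, as were 7.41% of all genes. Igfbp5, a substrate of PAPPA2, was at 80.4, 18.7 and 79.1 Gh-free CPM against 724, 356 and 768. Igfbp2, Igfbp3 and Igfbp4 were between 0 and 4.87 in Gh-rich cells. The paralog Pappa gave only 11, 4 and 4 UMIs in the Gh-rich, middle and lowest class.

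Over the 9 strata of 3 libraries and 3 classes, the genes most like each member in log2 level were found by Pearson's r among 9168 genes. The strata share their libraries and their Gh grouping, and so a high r is common. For Ghrhr these included Bbx, Mirg, Gga2 and Atg9b (0.996 to 0.990), and for Dlk1 they were Rint1, Snhg18, Kdelr2, Eef1g and 5330429C05Rik (0.994 to 0.988). For Pappa2 they were Syt7, Zfpl1, Sec16b, Alkbh1 and C77370 (0.987 to 0.982). Pou1f1 was most like Rps21, Rpl12, 1500026H17Rik, Plagl1 and Rpl38 (0.989 to 0.981), and Prl like Sepw1, Nmb, Cd24a, Txn1 and Mif (0.974 to 0.962).

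In the 19458 cells of the other 6 libraries the members were at or near 0. Ghrhr had 0 UMIs, which allows up to 0.151 CPM by the limit of 3 counts (0.185 by the exact interval), Pou1f1 1 UMI and Pappa2 11, against 35.0 to 43.1, 73.0 to 160.1 and 19.8 to 31.0 CPM in libraries 4 to 6. Prl had 35 UMIs in 31 cells, and 28 of them were in libraries 1 to 3. Dlk1 had 71 UMIs in 45 cells, of which 61 were in libraries 7 to 9, with up to 9 UMIs in a cell of library 8. Of these 71 UMIs, 15 were in cells with at least 5 UMIs of the astrocyte markers, 8 in cells with as many of the microglial, 5 of the neuron, 5 of the mural, 3 of the endothelial and 1 of the ependymal markers, and a cell can meet more than 1 of these limits.

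Part of the Gh outside libraries 4 to 6 sat in barcodes that those libraries also used. In libraries 1, 2 and 3, 35, 45 and 51 cells (1.36%, 1.42% and 1.86%) had such a barcode, and they held 32 of 115, 16 of 111 and 36 of 180 Gh UMIs (27.8%, 14.4% and 20%). Of these, 27, 15 and 29 UMIs were in barcodes of Gh-rich or Prl-rich cells. In libraries 7, 8 and 9, cells with a shared barcode held 0 of 1, 0 of 18 and 0 of 4 Gh UMIs. Without the shared barcodes, Gh was at 55.2 CPM instead of 75.5 in library 1 and at 40.1 instead of 49.0 in library 3.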

How the data were processed

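Single-cell RNA was measured by 10x 3′ sequencing in 9 libraries, each of 3 pooled mice. The authors mapped reads to GRCm38 and deposited UMI counts per gene and cell, whole numbers with no normalization, from Cell Ranger (2.2.0 in the submitters' processing notes, which also name R 3.5.3). The gene annotation used is not given in the sources used here. Gene coordinates came from GENCODE vM21 and promoter windows from RefSeq on GRCm38.p6.

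Library codes match no label, so with 1 library per group and no map from the labels there was no test, p-value or comparison of sleep groups. The code of library 7 carried all 1999 listed brainstem NS barcodes used here, against 5 to 13 in each other library, and library 7 entered only as background. The members, gene lists and marker lists were chosen with earlier results of these data known. The genes named were the members, up to 4 of each list, the 10 genes with the largest smallest ratio and the 5 most like each member. The names of list genes with too few UMIs (Sstr5 and the other such receptors, Ghrh, Rtl1, Pappa) were added once their values were known. A few genes covered by these rules are not reported here.

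UMIs were summed per library and Gh class and given as counts per 1000000 UMIs other than Gh (Gh-free CPM), since Gh takes most UMIs of some cells. The all-gene comparison used at least 100 UMIs per gene, a pseudocount of 10 Gh-free CPM and a 2-fold limit, and was tested on simulated data. Shares were compared after 1 random thinning to 250 UMIs other than Gh. All deposited cells were kept and no doublet caller was run. In UMI counts without replicates, PCR copies are removed but differences between mice are not covered by any interval. Low counts limit Ghrhr and Pappa2 most. The alternatives were other class limits, depth minimums, scalings, thinning depths, pseudocounts and filters. Leaving out Prl-rich cells or the top cell of a gene, subtracting the gated cells' mean, the finer bins, the strata under 10% and the scaling without both hormones were added after seeing the data. Sums, intervals and plots were made in Python 3.11.15 with scipy 1.17.1, matplotlib 3.10.9, numpy 2.4.6 and pandas 2.3.3.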

Additional observations from a re-analysis of the deposited data

How the results depend on the processing

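No paired analysis was possible because each group is 1 library, the library codes carry no replicate number and no test was run. The direction of the 4 members that were higher in Gh-rich cells held in each library for which an alternative gave a value (2 libraries for Ghrhr and Pappa2 at 1000 UMIs or more, and 2 and 1 after subtraction of the gated mean), and 4 members stayed at least 2-fold higher except in CPM of all UMIs, where 3 did (Pou1f1 was 1.33-fold higher in library 6). Of 98 alternative values of the member ratios to cells under 10%, 60 lay within the counting interval of the reported value, 37 outside it in the same direction, and 1 reversed: without Prl-rich cells the Prl ratio of Gh-rich cells to cells under 10% was 1.12 in library 5, against 0.735 and 0.716 in libraries 4 and 6. In cells of at least 1000 UMIs the library 5 ratios were 30.7 for Dlk1 and 16.8 for Pou1f1, against the reported 17.6 and 9.37. The Ghrhr ratio was then 330.0 in library 4 and 149 in library 6, against 124 and 70.7. Subtraction of the gated mean gave a Prl ratio of 0.0123 in library 4, against 0.0546, and no value in libraries 5 and 6. It took the same number of UMIs from each cell whatever its depth. Gated cells were deeper, with medians of 602, 452 and 815 UMIs other than Gh against 502, 352 and 445 in Gh-rich cells. As levels, Prl in Gh-rich over gated cells was 0.979 in library 5 and 2.07 in library 6. The subtraction of free RNA in proportion to Gh was not run, since Gh-rich cells held a median of 678 to 836 Gh UMIs against 3 to 10.5 in gated cells and Gh is then no measure of free RNA in them. With 150 or 400 UMIs per cell 4 and 5 members were found in a larger share of Gh-rich cells than of cells under 10%. The fifth at 400 was Prl (27.9%, 20.1% and 57.1% against 21.7%, 19.0% and 48.3%), whose summed level was lower in Gh-rich cells.

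The Gh share of libraries 4, 5 and 6 was 19.6%, 17.7% and 29.6% as a mean over cells, 32.0%, 44.6% and 35.5% in cells of at least 1000 UMIs, and 26.4%, 29.4% and 32.9% without mitochondrial and hemoglobin genes. Gh-rich cells made up 16.4%, 18.0% and 27.4% of the libraries with limits of 20% and 60%, 44.5%, 60.3% and 49.1% of cells of at least 1000 UMIs, and 22.1% of library 5 without the 5% of cells with most UMIs. With Prl-rich cells set at 20% of UMIs, 0% of Gh-rich cells of libraries 5 and 6 were Prl-rich. Pairs found together more often numbered 8 without thinning. Genes at least 2-fold higher numbered 379 with a pseudocount of 1, 83 with at least 500 UMIs and 448 in the sum of the libraries, and genes at least 2-fold lower 1081, 200 and 1166. Gh without shared barcodes was at 55.2 CPM in library 1 and 40.1 in library 3. Apart from the filters and scalings themselves, the cause of these shifts was not tested. Depth limits Ghrhr and Pappa2, which rest on 1 to 10 UMIs in each library's cells under 10%.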
